A study of Mus musculus with 8 samples.

Results

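The 10 genes described here encode transporters that carry amino acids, or the amino acid derivative taurine, across the plasma membrane. They are Slc7a5, Slc3a2, Slc7a8 and Slc43a1 (large neutral amino acids), Slc38a2, Slc38a4, Slc38a3 and Slc1a5 (small neutral amino acids and glutamine), Slc7a1 (cationic amino acids) and Slc6a6 (taurine). They were chosen by name, with earlier results of these data known, from a table of 53819 gene symbols. All 10 were found and were counted deeply enough to be tested, among 14070 genes tested in all.

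The RNA came from the quadriceps muscle of wild type C57BL/6J mice that were 8 weeks old when the experiment began. The 4 tumor mice were given 500000 cells of the head and neck squamous cell carcinoma line B0092 under the skin near the nape, and the 4 control mice were given the vehicle PBS. All were killed on day 36, set in the series description by a weight loss of about 10%, a state studied as a model of cachexia, the wasting that accompanies cancer. One tumor line at one time point was used, and the sex of the mice is not given in the sources used here.

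Muscle holds the body's largest store of amino acids in protein, and during wasting it releases glutamine and alanine into the blood. Carriers of system A (Slc38a2 and Slc38a4) bring small neutral amino acids such as alanine into the cell together with sodium, and the system N carrier Slc38a3 moves glutamine and histidine in either direction. Exchangers of system L, in which a light chain (Slc7a5 or Slc7a8) is held at the membrane by the heavy chain Slc3a2, swap glutamine inside for leucine and other large neutral amino acids outside, and leucine is a signal to the growth kinase complex mTORC1. Slc43a1 carries leucine and its relatives by facilitated diffusion, without exchange.

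Of the 10 transporters, 4 passed the test (adjusted p under 0.05 by the edgeR quasi-likelihood test, Benjamini-Hochberg over all genes), where 19.8% of all genes did. In tumor-bearing mice Slc43a1 rose 3.35-fold and Slc3a2 rose 1.32-fold, so that 2 of 10 were higher against 11.0% of all genes. The system A carriers Slc38a4 and Slc38a2 fell 2.02-fold and 1.51-fold, so that 2 of 10 were lower against 8.73% of all genes. The 10 were chosen with earlier results of these data known, so these shares cannot test for an excess, and no conclusion is drawn from them. Of all genes past the threshold 55.8% were higher, and 43.0% with upper-quartile scaling. The median log2 fold change of the 10 was 0.05, and that of all genes was 0.00. The groups did not overlap in 1 of the 10 (Slc3a2), against 25.0% of all genes. The 4 adjusted p ran from 0.0193 to 0.0433, and each call was lost in some of the fits that left out 1 library, as given with each gene.

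Promoters of the 4 transporters that passed are shown so that the proximal sequence of the pair that rose can be read beside that of the pair that fell. They are the 250 bases before the annotated start in RefSeq on GRCm38.p6, a build other than the GRCm39 of the counts, and capitals mark the only match to a searched motif. Slc38a4 has 3 starts in the table, and the one farthest upstream is printed.
Slc43a1 promoter (chr2:84840073-84840322, plus strand): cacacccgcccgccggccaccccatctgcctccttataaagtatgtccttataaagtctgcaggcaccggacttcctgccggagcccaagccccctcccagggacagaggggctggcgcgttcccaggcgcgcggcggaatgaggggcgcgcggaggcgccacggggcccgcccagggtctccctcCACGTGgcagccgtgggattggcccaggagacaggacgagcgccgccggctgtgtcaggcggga
Slc3a2 promoter (chr19:8713898-8714147, minus strand): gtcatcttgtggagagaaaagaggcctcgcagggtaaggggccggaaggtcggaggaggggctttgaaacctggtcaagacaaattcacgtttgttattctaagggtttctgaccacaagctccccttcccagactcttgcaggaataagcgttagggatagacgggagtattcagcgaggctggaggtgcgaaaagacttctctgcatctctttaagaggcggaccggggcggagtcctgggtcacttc
Slc38a4 promoter (chr15:97055957-97056206, minus strand): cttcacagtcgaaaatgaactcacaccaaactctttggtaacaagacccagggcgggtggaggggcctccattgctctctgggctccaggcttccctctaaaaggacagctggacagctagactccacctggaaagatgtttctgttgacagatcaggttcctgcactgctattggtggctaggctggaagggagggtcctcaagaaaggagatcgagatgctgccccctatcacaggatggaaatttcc
Slc38a2 promoter (chr15:96699729-96699978, minus strand): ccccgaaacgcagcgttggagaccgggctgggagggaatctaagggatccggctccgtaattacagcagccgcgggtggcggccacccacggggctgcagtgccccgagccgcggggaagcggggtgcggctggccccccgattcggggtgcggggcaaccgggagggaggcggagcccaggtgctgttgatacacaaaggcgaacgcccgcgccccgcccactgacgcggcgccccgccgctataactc

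Both strands were searched for the amino acid response element TGATGNAAN (bound by ATF4 when amino acids run short), the E-box CACGTG, the FOXO element GTAAACA and the glucocorticoid response element, motifs of factors that act on amino acid stress or muscle wasting. The one match was the E-box of Slc43a1, which begins 64 bases before the start. E-boxes were present in 6.02% of the 32851 promoters of this length in the table, the amino acid response element in 3.44%, the FOXO element in 3.17% and the glucocorticoid element in 0.00913%. A promoter was in the table for 6 of the 10 transporters, and Slc7a1 and Slc7a8, like the other 3 printed, had no match in this window. Slc7a1 has 2 starts in the table, and for it and Slc38a4 only the start farthest upstream was searched. Sequence after the start, introns included, and sequence farther upstream were not searched, so an element there would have been missed. The GC content of the printed windows was 70.8% for Slc43a1 and 72.0% for Slc38a2, and 53.6% for Slc3a2 and 52.8% for Slc38a4, so that each direction held 1 GC-rich promoter and 1 near the median of all promoters (52.4%).

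**Figure D1:**
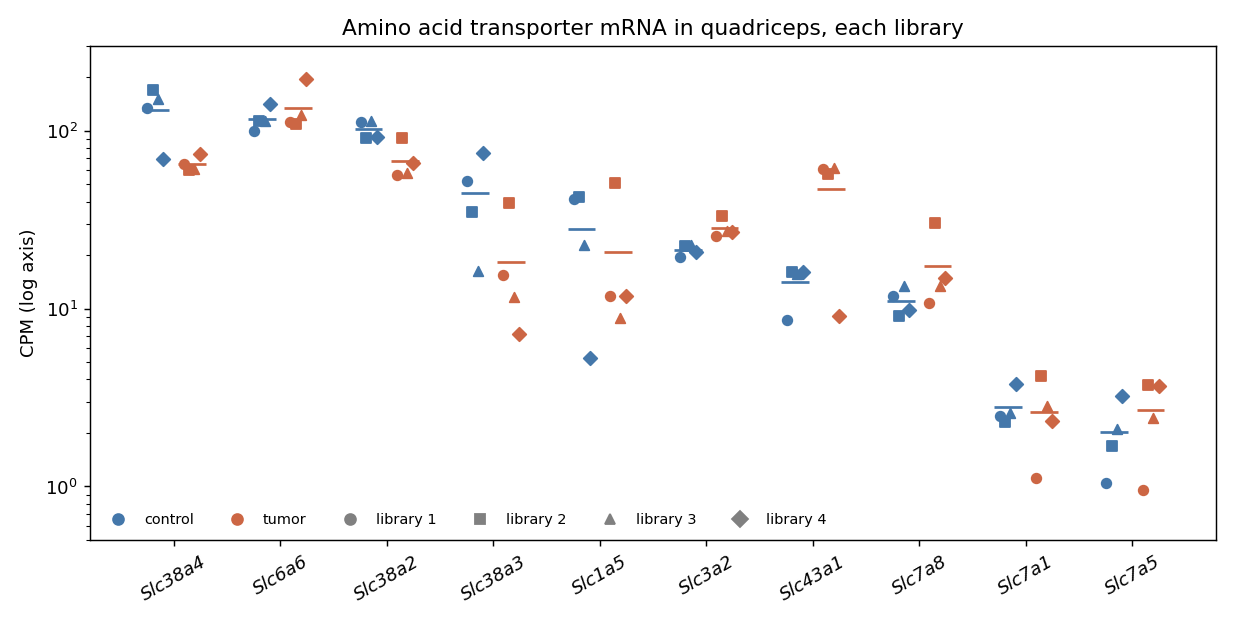
Level of each transporter mRNA in every library, in counts per 1000000 (CPM, log axis), with controls in blue, tumor libraries in orange and a bar at the mean of each group of 4. Slc43a1 lies near 60 CPM in 3 tumor libraries and at 9.10 in the other, while Slc38a4 is at 60.4 to 73.6 CPM in all 4 tumor libraries.

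Libraries held 28436205 to 36139462 rounded counts. Control library 4 and tumor library 2 stood apart from their groups in fibre type: Myh4, the myosin of the fastest fibres, was 64.6% and 80.3% of adult myosin heavy chain counts there, against 88.5% to 98.9% in the other 6. Muscle fibre markers summed to 163143 to 207378 CPM in controls and 105398 to 212896 in tumor mice, with tumor library 4 lowest. Of these 12 genes 2 fell (Acta1 and Myh7) and 0 rose, and their median log2 fold change was -0.82. Of the marker lists of other cells, 5 of 10 endothelial genes fell (summed level 211 to 324 CPM in controls, 119 to 223 in tumor mice). In the fibroblast list 3 of 8 genes fell (summed level 513 to 740, then 194 to 458). They were the collagen genes Col1a2 and Col3a1 (Col3a1 at 154 to 244 CPM, then 10.1 to 79.1) and Pi16. The median log2 fold change of this list was -1.19, and the groups did not overlap in 4 of its 8 genes. Col1a1 did not pass but was lower without overlap (73.0 to 126 CPM, then 5.42 to 56.1). Pdgfra and Dcn did not pass, and their groups overlapped (Dcn at 134 to 164 CPM, then 135 to 198). The 6 adipocyte markers ranged from 170 to 748 CPM in controls and from 83.3 to 668 in tumor mice, with 0 of 6 past the test. Among squamous epithelial markers, Krt5, Krt14, Krt6a, Krt1 and Dsg3 were at 0 in all 8 libraries. The list summed to 8.81 to 11.9 CPM in controls and 18.2 to 39.1 in tumor mice, most of it Trp63, which rose, while Krt10 fell (3 of 8 were tested). Satellite cell markers summed to 26.7 to 28.5 CPM in controls and 52.1 to 76.7 in tumor mice, leukocyte markers to 39.6 to 76.0 and 27.0 to 103 (1 of 7 rose), erythroid markers to 116 to 239 and 46.5 to 276 (0 of 5 passed), and Schwann cell markers to 22.5 to 56.4 and 17.6 to 52.4 (0 of 5 passed). Of the 4 satellite cell markers tested, Cdh15 rose (19.9 to 22.8 CPM in controls, 45.2 or more in each tumor library) and the other 3 did not pass, among them Pax7 at 2.05 to 2.68 and 1.69 to 2.84 CPM. In bulk muscle, fewer cells of a type and less RNA per cell cannot be told apart, and the part of these shifts in the transporter values was not tested except where a value is given. Without both libraries that stood apart in fibre type, an alternative chosen after seeing the data, Slc38a4 (log2 fold change -1.20, adjusted p = 0.00385) and Slc38a2 (-0.82, adjusted p = 0.00742) kept their calls. Slc43a1 (1.70, adjusted p = 0.0804) and Slc3a2 (0.29, adjusted p = 0.11) lost theirs. That fit drops the lowest Slc38a4 control value (69.7 CPM) and the highest Slc38a2 tumor value (91.1 CPM). This by itself favours those 2 falls, so no conclusion is drawn from their smaller p.

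The transporter mRNAs differed widely in level. Per kilobase of the longest coding transcript (GENCODE M21), control means were 33.4 CPM for Slc38a4, 22.0 for Slc38a2, 18.9 for Slc6a6, 14.2 for Slc38a3, 10.1 for Slc1a5, 7.62 for Slc3a2, 4.58 for Slc43a1, 2.69 for Slc7a8, 0.57 for Slc7a5 and 0.39 for Slc7a1. Neighbours in this order overlapped between libraries at every step but 2, from Slc3a2 (lowest 6.91) to Slc43a1 (highest 5.23) and from Slc7a8 (lowest 2.22) to Slc7a5 (highest 0.92). In tumor mice the order began with Slc6a6 (21.8), Slc38a4 (16.5), Slc43a1 (15.3) and Slc38a2 (14.6), whose neighbours overlapped. On this scale Slc43a1 stood at rank 3 of 10 in mean level in tumor mice and at rank 7 in controls. Slc7a5 (0.77) and Slc7a1 (0.36) remained lowest. Which transcripts muscle uses was not measured, and the order depends on the length taken. Per kilobase of the median coding transcript, Slc6a6 (188 CPM), Slc38a4 (66.9) and Slc3a2 (33.1) led in controls. Slc43a1 then stood at rank 7 in controls (5.57) and rank 4 in tumor mice (18.6), while Slc7a5 and Slc7a1 were again lowest in both groups.

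Both system A carriers fell in tumor mice. Slc38a4, an imprinted gene in mouse, measured 135, 170, 151 and 69.7 CPM in control libraries 1 to 4 and 65.4, 60.4, 60.7 and 73.6 CPM in tumor libraries 1 to 4. Control library 4 lay with the tumor libraries, so the groups overlapped, and the tumor libraries were close to each other. The log2 fold change was -1.01 ± 0.24 (SE), with a 95% interval from -1.55 to -0.48 and an adjusted p of 0.0193. Without control library 4, the lowest control, it was -1.22 (adjusted p = 0.00397), a fit that by itself favours a fall. With the ratio of Myh4 to the other adult myosins as a covariate it was -1.12 (adjusted p = 0.00823). It missed the threshold when control library 1, control library 2 or tumor library 3 was left out, with adjusted p of 0.0587, 0.0575 and 0.0657.

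Slc38a2, the widely expressed system A carrier whose level adapts to amino acid supply, measured 112, 90.8, 114 and 92.4 CPM in controls and 56.4, 91.1, 58.0 and 66.3 CPM in tumor mice. Tumor library 2 matched the lowest controls, and the other 3 tumor libraries were below every control. Tumor over control, this gave a log2 fold change of -0.59 ± 0.17 (95% interval -0.98 to -0.21, adjusted p = 0.0396). It was -0.79 without tumor library 2 (adjusted p = 0.00776) and passed without control library 4 (adjusted p = 0.0498). Without any other single library the call was lost (adjusted p from 0.0669 to 0.119).

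The balance of the 2 system A carriers was compared as a ratio within each library, which needs no scaling. The log2 ratio of Slc38a2 to Slc38a4 counts was -0.26, -0.91, -0.40 and 0.41 in controls and -0.21, 0.59, -0.07 and -0.15 in tumor mice. Means were -0.29 ± 0.54 and 0.04 ± 0.37 (SD, n = 4 each), with a two-sided exact permutation p = 0.314 (adjusted p = 0.943 over the 3 ratios tested, where the smallest p that 4 against 4 allows is 0.0286). The groups overlapped widely.

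**Figure D2:**
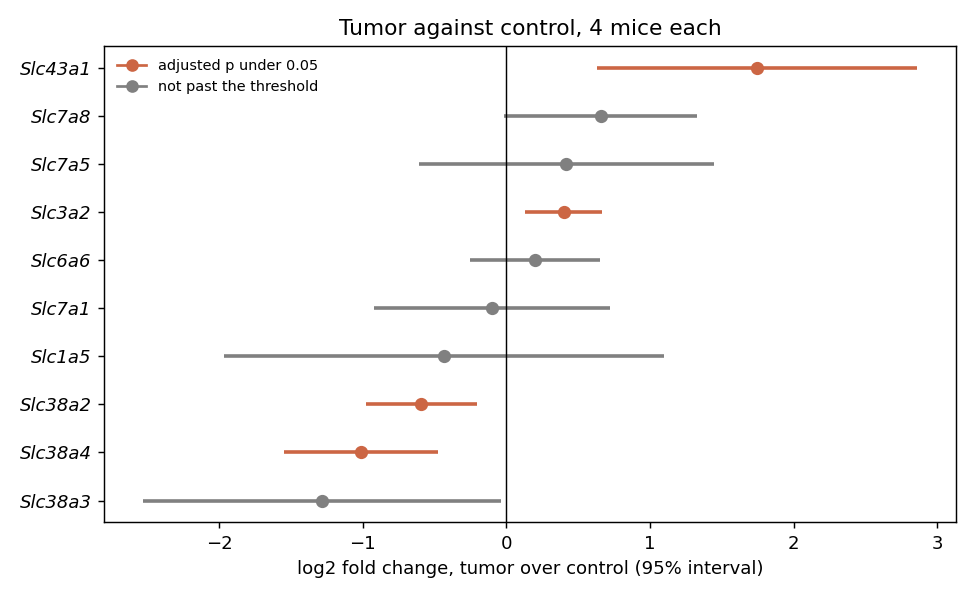
Log2 fold change of tumor over control for each transporter, with its 95% interval from the edgeR fit. Orange marks an adjusted p under 0.05: Slc43a1 at 1.74 and Slc3a2 at 0.40 lie above 0, Slc38a2 at -0.59 and Slc38a4 at -1.01 below, and the interval of Slc38a3 misses 0 although its adjusted p is 0.132.

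The glutamine carriers Slc38a3 and Slc1a5 varied widely between mice, and neither passed. Slc38a3 measured 52.4, 34.8, 16.4 and 74.9 CPM in controls and 15.4, 39.0, 11.6 and 7.23 CPM in tumor mice. The 2 libraries with the lowest share of Myh4 were the highest of their groups, control library 4 at 74.9 and tumor library 2 at 39.0. The log2 fold change was -1.28 ± 0.56 (95% interval -2.53 to -0.04, adjusted p = 0.132), lower on average by 2.43-fold. It was 4.01-fold lower without tumor library 2 (adjusted p = 0.024), a fit that drops the highest tumor value and so favours a fall. The log2 fold change was -1.61 without both libraries that stood apart (adjusted p = 0.0298). It was -0.91 without control library 4 (adjusted p = 0.295) and -0.76 with the myosin covariate (adjusted p = 0.18). In controls Slc38a3 was lower the higher the log2 ratio of Myh4 to Myh1, Myh2 and Myh7: the ratio was 0.87, 2.95, 4.29 and 5.60 in control libraries 4, 1, 2 and 3. Tumor libraries 1, 3 and 4, with ratios of 6.51, 6.00 and 4.32, did not follow that order.

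Slc1a5, an exchanger of glutamine, alanine and serine, measured 41.4, 42.7, 22.8 and 5.29 CPM in controls and 11.8, 50.7, 8.83 and 11.7 CPM in tumor mice. The highest value of all was in tumor library 2 and the lowest in control library 4, so the groups overlapped throughout. Its log2 fold change was -0.43 ± 0.68 (95% interval -1.96 to 1.09, adjusted p = 0.693). Its spread within groups (SD of log2 CPM 1.28) was larger than that of 98.6% of the tested genes that averaged at least 1 log2 CPM. Without both of those libraries the log2 fold change was -1.73 ± 0.25 (adjusted p = 0.00611). That fit drops the highest tumor value and the lowest control value, which by itself favours a fall, so no conclusion is drawn from it. Without either library alone Slc1a5 did not pass (adjusted p = 0.389 without control library 4 and 0.115 without tumor library 2).

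Slc1a5 and the adipocyte markers were high in the same libraries. The summed level of the 6 markers was 512, 748, 268 and 170 CPM in control libraries 1 to 4 and 136, 668, 93.4 and 83.3 CPM in tumor libraries 1 to 4. The 3 libraries with the highest marker sums (controls 1 and 2 and tumor 2) had the 3 highest Slc1a5 values, and control library 3 came next in both. Control library 4, with the next marker sum, had the lowest Slc1a5. Fabp4 made up 165 of the 170 CPM in that library, and Adipoq, Plin1, Lep, Cidec and Retn were each lowest there. Adipoq, the adipocyte hormone adiponectin, ran from 1.59 CPM in control library 4, where Slc1a5 was lowest, to 85.7 in control library 2. Whether fat cells in the sample account for the Slc1a5 values was not tested.

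**Figure D3:**
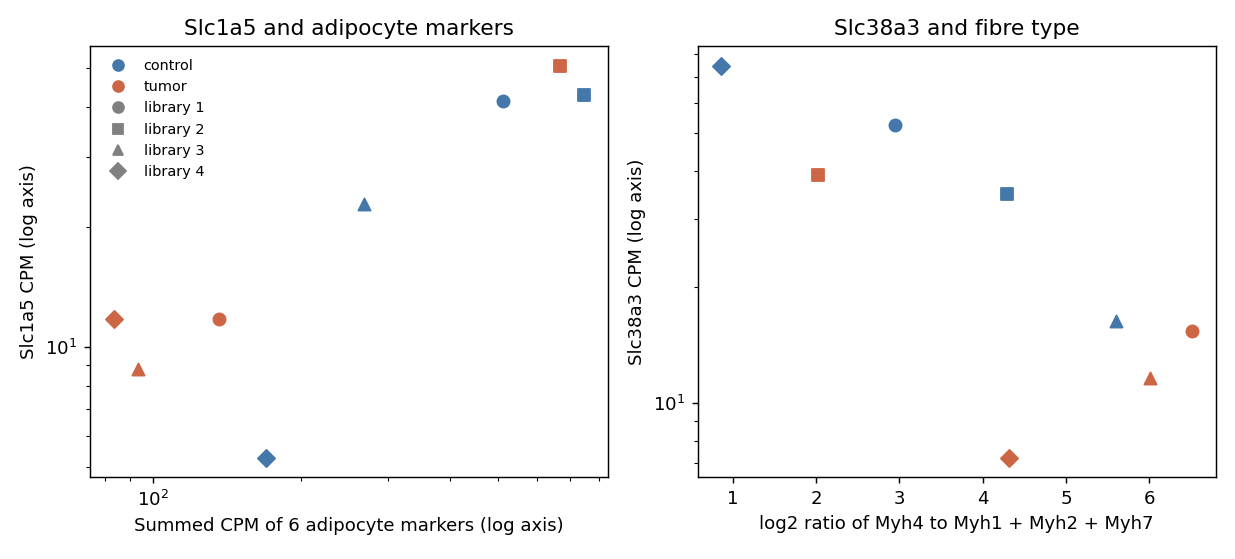
Left, Slc1a5 CPM against the summed CPM of 6 adipocyte markers (both log axes), and right, Slc38a3 CPM (log axis) against the log2 ratio of Myh4 to Myh1, Myh2 and Myh7, 1 point per library. Slc1a5 is at 41.4 to 50.7 CPM in the 3 libraries with marker sums of 512 to 748, and Slc38a3 is highest in control library 4, which has the lowest myosin ratio (0.87).

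Among carriers of large neutral amino acids, Slc43a1 had the largest rise and an exception. It measured 8.67, 16.1, 15.6 and 16.2 CPM in controls and 61.0, 57.3, 62.0 and 9.10 CPM in tumor mice. Tumor libraries 1 to 3 agreed closely, the lowest of them 3.55-fold above the highest control, while tumor library 4 lay within the control range. The log2 fold change was 1.74 ± 0.50 (95% interval 0.63 to 2.86, adjusted p = 0.0374). Without tumor library 4 it was 2.08 ± 0.20 (4.23-fold, adjusted p = 0.00401). That fit drops the tumor value that lay within the control range, which by itself favours a rise. Without any other single library the call was lost (adjusted p from 0.0642 to 0.109). Neither limma-voom (adjusted p = 0.12) nor the fit with the myosin covariate (adjusted p = 0.0537) placed it past the threshold. Tumor library 4 had the lowest muscle fibre marker sum and the highest leukocyte sum (103 CPM). Of that leukocyte sum 33.0 CPM was Cd68, which was at 1.98 to 7.81 CPM in the other libraries. Lyz2, the most abundant marker of that list, was at 45.3 CPM there and at 14.7 to 59.6 in the other tumor libraries. The erythroid marker sum was also lowest in tumor library 4 (46.5 CPM) and ran from 81.2 to 276 CPM in the other tumor libraries. In controls it was 116 to 239 CPM, with Slc43a1 at 8.67 to 16.2 CPM. Tumor libraries 2 and 3 had erythroid sums below every control (107 and 81.2 CPM) with Slc43a1 at 57.3 and 62.0 CPM. The part of these cells in the Slc43a1 values was not tested.

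Slc3a2, the heavy chain of the system L exchangers, showed the smallest and most even rise. It measured 19.4, 22.6, 22.9 and 20.8 CPM in controls and 25.6, 33.3, 27.2 and 27.0 CPM in tumor mice. Every tumor library was above every control. Its log2 fold change was 0.40 ± 0.12 (95% interval 0.13 to 0.66, adjusted p = 0.0433), and its spread within groups (SD of log2 CPM 0.14) was larger than that of only 13.5% of genes. The call held without tumor library 1 (adjusted p = 0.0397) and was lost without any other single library (adjusted p from 0.0541 to 0.132) with upper-quartile scaling (0.32, adjusted p = 0.0742) and without a count filter (adjusted p = 0.106).

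The light chains did not pass. Slc7a8 (LAT2) measured 11.7, 9.06, 13.4 and 9.78 CPM in controls and 10.8, 30.3, 13.4 and 14.9 CPM in tumor mice. Tumor library 2 alone was far above the controls, and 2 of the other 3 were within their range. Its log2 fold change was 0.66 ± 0.30 (95% interval -0.02 to 1.33, adjusted p = 0.154), and 0.21 without tumor library 2.

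Slc7a5 (LAT1), the leucine exchanger of growing and activated cells, had only 29 to 128 counts per library. It measured 1.04, 1.69, 2.11 and 3.22 CPM in controls and 0.955, 3.70, 2.44 and 3.67 CPM in tumor mice, with groups that overlapped. The log2 fold change was 0.42 ± 0.46 (95% interval -0.60 to 1.44, adjusted p = 0.553), an interval with values on both sides of 0. With 1 library left out it ran from 0.20 (without tumor library 2) to 0.73 (without control library 4).

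Ratios between the mRNAs of the exchanger chains differed between groups by less than the spread between libraries. The log2 ratio of Slc7a5 to Slc3a2 was -4.19, -3.73, -3.43 and -2.68 in controls and -4.72, -3.16, -3.47 and -2.87 in tumor mice, so the heavy chain exceeded this light chain by counts in all 8 libraries. Means were -3.51 ± 0.63 and -3.56 ± 0.82 (SD, n = 4 each), and the exact permutation test, two-sided, gave p = 0.943. The log2 ratio of Slc7a5 to Slc7a8 was -2.53 ± 0.77 and -2.74 ± 0.64 (two-sided exact permutation p = 0.686, adjusted p = 0.943).

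The cationic and taurine carriers did not pass either. Slc7a1 (CAT1), which imports arginine and lysine, measured 2.51, 2.32, 2.60 and 3.77 CPM in controls and 1.12, 4.15, 2.83 and 2.33 CPM in tumor mice, from 34 to 128 counts. Its log2 fold change was -0.10 ± 0.37 (95% interval -0.92 to 0.72, adjusted p = 0.871). Slc7a2 (CAT2), named here after its values were seen, was the more abundant cationic carrier per kilobase of the longest transcript, at 6.66 against 0.39 CPM in controls. It went from 52.7 ± 8.66 to 89.2 ± 45.3 CPM (SD, n = 4; log2 fold change 0.76 ± 0.31, adjusted p = 0.108).

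Slc6a6, the taurine carrier and the highest of the 10 by mean CPM per kilobase in tumor mice, measured 99.9, 113, 114 and 141 CPM in controls and 111, 110, 122 and 195 CPM in tumor mice. Tumor library 4 was high, and the other 3 lay inside the control range. Its log2 fold change was 0.20 ± 0.20 (95% interval -0.25 to 0.65, adjusted p = 0.517), and -0.039 without tumor library 4.

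**Figure D4:**
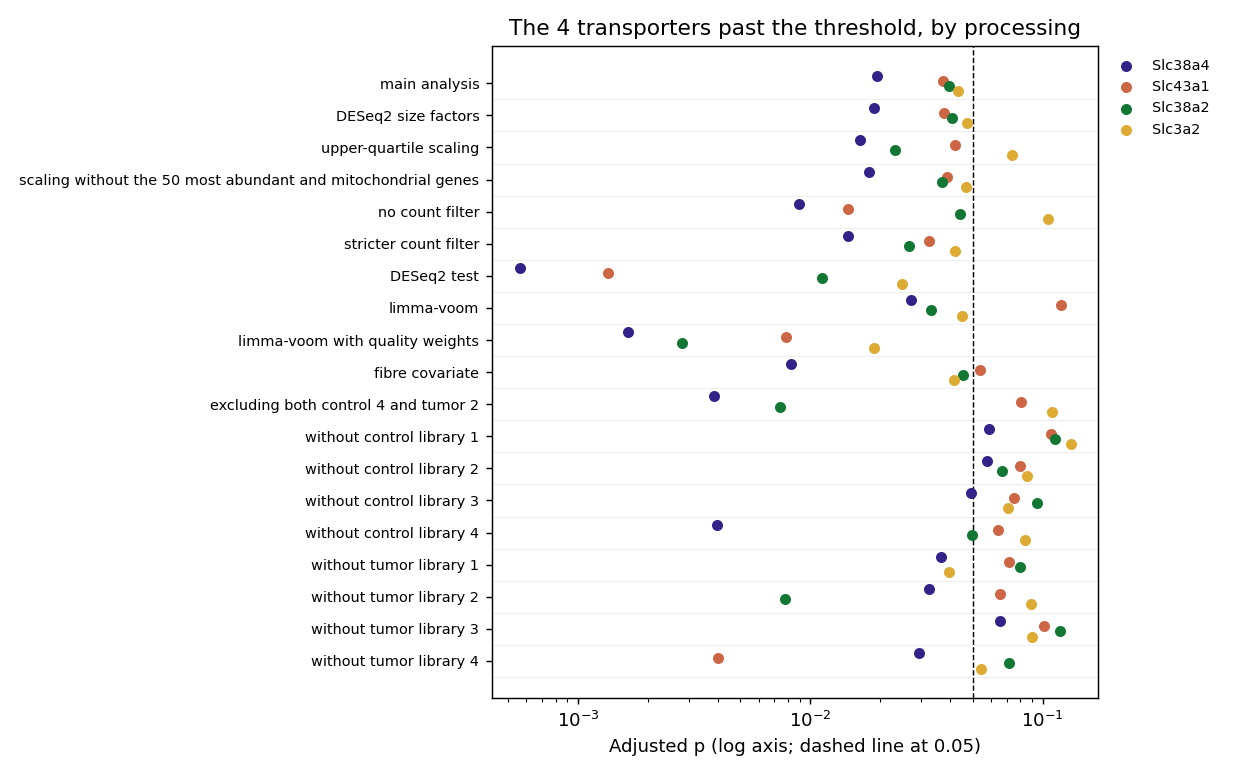
Adjusted p (log axis) of the 4 transporters that passed, in the main analysis and under 18 alternatives of scaling, filter, test, covariate or left-out library, with a dashed line at 0.05; the fit by replicate number is not plotted and is given with the dependence on processing. Slc38a4 stays left of the line in 15 of the 18, Slc38a2 in 12, and Slc43a1 and Slc3a2 in 8 each.

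Related genes are given from lists chosen by function, also with earlier results of these data known. Of 36 other plasma membrane amino acid transporters, 12 were counted deeply enough to test, and 1 of these rose and 0 fell (8.33% past the threshold, median log2 fold change 0.09). The glycine carrier Slc6a9 rose 2.25-fold, from 7.99 ± 3.37 to 18.0 ± 6.85 CPM (adjusted p = 0.0433), with groups that overlapped, and it lost its call without control library 1 or 2 or tumor library 2, 3 or 4 (adjusted p from 0.0745 to 0.117). Of the other 35, 7 were at 0 in all 8 libraries: Slc1a7, Slc6a11, Slc6a14, Slc7a9, Slc7a12, Slc36a3 and Slc38a8.

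Of 9 tested lysosomal amino acid transporters, 2 rose and 0 fell (22.2%, median 0.23). Slc15a4, which exports histidine and small peptides from lysosomes, rose from 15.5 ± 2.60 to 42.0 ± 11.3 CPM (log2 fold change 1.44 ± 0.21, adjusted p = 0.00399). All 4 tumor libraries were above all controls, and it passed in all 18 of these alternatives. Slc38a7, a lysosomal glutamine exporter of the same family as the system A carriers, rose 1.43-fold at the threshold (adjusted p = 0.0491) and lost its call in 12 of the 18, among them every single left-out library but control 2 and tumor 2.

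The taurine result can be set beside carriers of other organic osmolytes. Of 11 tested osmolyte and tonicity genes, 1 rose and 3 fell (36.4%, median -0.18). The creatine carrier Slc6a8, of the same family as Slc6a6, fell 2.25-fold, from 136 ± 37.9 to 60.5 ± 9.53 CPM (adjusted p = 0.00573). The inositol carrier Slc5a3 fell 4.72-fold, from 2.48 ± 0.63 to 0.52 ± 0.16 CPM (adjusted p = 0.00399), and the sodium, potassium and chloride cotransporter Slc12a2 rose 2.84-fold, from 92.4 ± 22.8 to 262 ± 75.1 CPM (adjusted p = 0.00543). In these 3 the groups did not overlap, and each passed in every alternative that tested it. The remaining fall was that of the chaperone gene Hspa4l (2.02-fold, adjusted p = 0.0261), named after its values were seen. Its groups overlapped (control library 3 at 7.12 CPM, tumor library 4 at 7.46), and its call was lost when control library 1, 2 or 4 or tumor library 3 was left out.

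Of 17 tested genes that respond to amino acid shortage through ATF4, 1 rose (Vldlr, a lipoprotein receptor, 1.73-fold, adjusted p = 0.0485) and 1 fell (Nupr1, a stress regulator, 1.81-fold, adjusted p = 0.0287), or 11.8%, with a median of -0.07. The Vldlr call was lost in 12 of the 18 alternatives, DESeq2 size factors among them (adjusted p = 0.05003), and Nupr1 was lost in 5, without control library 1, 2 or 4 or tumor library 3 or 4 (adjusted p from 0.0532 to 0.0853). Of 13 enzymes of glutamine, alanine and branched-chain amino acids, 1 rose and 1 fell (15.4%, median -0.12). Glutamine synthetase (Glul) went from 215 ± 29.1 to 885 ± 349 CPM (adjusted p = 0.00399), while the glutamine carriers Slc38a3 and Slc1a5 had log2 fold changes below 0 that did not pass. Bckdk, the kinase that restrains branched-chain breakdown, fell 1.54-fold (adjusted p = 0.0319), a call that was lost without control library 1, 2 or 4 or tumor library 3 or 4 (adjusted p from 0.0541 to 0.102). Of 27 genes of amino acid sensing by mTORC1, 1 rose and 1 fell (7.41%, median 0.09): Nprl3, a subunit of the GATOR1 complex that inhibits mTORC1, rose 1.40-fold (adjusted p = 0.0174, lost without control library 1 or tumor library 3 at 0.0632 and 0.0621), and Kptn, of the KICSTOR scaffold for GATOR1, fell 1.73-fold (adjusted p = 0.0209, lost without tumor library 3 at 0.0691 and without both libraries that stood apart at 0.0581).

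The genes most like the 3 transporters with the smallest p were found by the root mean square difference of log2 CPM over the 8 libraries, each gene centred on its own mean, among 10819 other tested genes. Trim35 (0.18), Rhbdl3 (0.19) and Plxna1 (0.19) were closest to Slc38a4. Ntmt1 (0.13), St7 (0.14) and Zfp142 (0.14) were closest to Slc38a2. The genes closest to Slc43a1 were farther from it, at 0.40 for 4930481A15Rik, 0.42 for Tmem140 and 0.46 for Ube4a. This difference grows with a gene's own spread, so distances for different transporters are not on a like scale. The SD of log2 CPM within groups was 1.01 for Slc43a1, 0.42 for Slc38a4 and 0.26 for Slc38a2.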

How the data were processed

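Polyadenylated RNA from the quadriceps of 8 mice (4 control, 4 tumor) was sequenced, each mouse giving 1 library (per the labels' protocols). Titles gave the groups. The authors deposited estimated counts per gene symbol, of which 9% of values were not whole. The submitters' processing notes name the build GRCm39 and the tools Salmon 1.10.1, STAR 2.7.9a, Trim Galore 0.6.7, cutadapt 3.4 and R 4.2.2. The sources used here do not give what each did, the annotation or the strand setting, so reads of overlapping genes may be shared.

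Counts were rounded, filtered with filterByExpr (minimum count 10), scaled by TMM and tested with the edgeR 4.0.16 quasi-likelihood F test in R 4.3.3, two-sided, with group as the only term. Benjamini-Hochberg adjustment ran over 14070 genes. Standard errors are the absolute log2 fold change over the root of F, and intervals use the fit's degrees of freedom. CPM are TMM-scaled, log2 CPM use a prior count of 2, and ratios add 0.5 to each count. Ratios were tested by exact permutation of the group labels. The steps were tested on simulated counts. Alternatives changed the scaling, the count filter, the test (DESeq2 1.42.0, limma 3.58.1), covariates and the libraries included.

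The members and lists were chosen with earlier results of these data known. Genes outside the 10 were named by rule: up to 3 of each list with the smallest p among those past the threshold, and the 3 genes closest in profile to each of the 3 transporters with the smallest p. Exceptions named after their values were seen are Slc7a2, Slc7a10, Slc36a2, Hspa4l and single genes of the marker lists.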

Additional observations from a re-analysis of the deposited data

Results flagged for a closer look

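Each of the 20 groups of 4 transporter values and 6 groups of ratios was screened for a library far from the other 3 (gap to the nearest library over the whole range above Dixon's critical value at 95%), and 4 of 26 were found. For independent, normally distributed values chance alone does this in about 1 of 20 groups. Transporter values were screened as CPM without logs, and the groups share libraries, so that rate is only a guide. Slc1a5 was at 50.7 CPM in tumor library 2 and at 8.83 to 11.8 in the other tumor libraries. Slc43a1 was at 9.10 CPM in tumor library 4 and at 57.3 to 62.0 in the others, and at 8.67 CPM in control library 1 against 15.6 to 16.2. Slc6a6 was at 194.7 CPM in tumor library 4 and at 110 to 122 in the others.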

How the results depend on the processing

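Of 190 alternative values for the 10 transporters, 149 kept direction and side of the threshold, 33 lost a call, 4 gained one and 4 changed sign. Of 227 for the other named genes, 179 kept both and 48 lost a call. The sign changes were those of Slc7a1 (log2 fold change -0.10, then 0.089 with the fibre covariate, 0.074 without control library 4 and -0.45 to 0.15 with 1 library left out) and Slc6a6 (0.20, then -0.039 to 0.30 with 1 library left out, negative without tumor library 4), neither past the threshold. All genes past the threshold numbered 2781, 4982 by limma-voom with quality weights and 1110 to 2845 with 1 library left out (leaving out control 1, control 2 or tumor 3 gave 1110, 1373 and 1190). Transporters called higher numbered 2, and 1 with upper-quartile scaling, without a count filter, by limma-voom or with the fibre covariate, 0 without both control library 4 and tumor library 2, and 0 to 1 with 1 library left out. Transporters called lower numbered 2, then 4 without both of those libraries (Slc1a5, Slc38a2, Slc38a3 and Slc38a4) and 0 to 3 with 1 library left out. For Slc1a5 the fit without both drops the highest tumor and the lowest control value, so no conclusion is drawn from that call. For Slc38a4 it drops the lowest control value and for Slc38a2 the highest tumor value, which also favours a fall. Leaving out a library also lowers the number of mice. With upper-quartile scaling 43.0% of all called genes were higher, against 55.8% with TMM; no scaling moved the median of all genes by more than 0.08 on the log2 scale. With the replicate number as a block (replicate block), 1932 genes passed, and 0 transporters were called higher and 0 lower (adjusted p of the 4 from 0.0569 to 0.112). Under that block Slc38a7, Vldlr, Bckdk and Kptn also missed the threshold (0.112, 0.1001, 0.0624 and 0.053). Deviations of same-numbered libraries correlated across genes at 0.028, 0.13, 0.20 and 0.016, and 2 of 4 controls correlated best with their own number. With so few libraries this check cannot exclude pairing, and the main test did not pair mice. The difference in the log2 ratio of Slc7a5 to Slc3a2 was -0.05, and -0.28 to 0.34 with 1 library left out (0.10 without both libraries above). That of Slc7a5 to Slc7a8 was -0.21, -0.52 to 0.11 and 0.20, and that of Slc38a2 to Slc38a4 was 0.33 and 0.13 to 0.56. None passed. Slc7a5 and Slc7a1, with 29 to 128 counts per library, have the depth least able to show a difference. The fibre covariate and the fit without both libraries were chosen after seeing the data. Where a call changed, the cause was not tested.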

Other observations

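Slc7a10 and Slc36a2, carriers of serine and of glycine or proline that were named after their values were seen, had their 4 highest values in the 4 libraries with the highest adipocyte marker sums. Slc7a10 measured 1.67, 3.14, 2.26 and 0 CPM in control libraries 1 to 4 and 1.22, 5.16, 1.09 and 0.32 CPM in tumor libraries 1 to 4. Slc36a2 measured 9.22, 14.6, 4.51 and 0.18 CPM in controls and 1.22, 16.8, 0.90 and 0.55 CPM in tumor mice. As with Slc1a5, both were highest in tumor library 2 and lowest in control library 4. Neither passed the edgeR test (adjusted p = 0.941 and 0.776).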
